A study of Mus musculus with 6 samples.

Results

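The 10 transcripts described here belong to the bone morphogenetic protein (BMP) branch of the TGFB superfamily in cultured mouse ovarian surface epithelium. They were chosen by gene symbol. They comprise the BMP-regulated SMAD genes Smad1, Smad5 and Smad9, the 4 inhibitor-of-differentiation (ID) genes Id1 to Id4, the receptor genes Bmpr1a and Bmpr2, and the ligand gene Bmp4. Each symbol had 1 row among the 35688 gene rows of the table, and all 10 passed the abundance filter that left 12257 genes for testing. The cells were the line m1102, labelled as ovarian surface epithelial cells. In 3 libraries the cells had received 10 ng/mL TGFB1 for 4 days, and in 3 libraries they were untreated. All cells grew in a medium with 4% serum, ITSS and EGF, in both groups. The data come from 1 line, and the labels do not say whether the libraries of a group came from separate cultures, so that the spread between them may be technical.

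BMP ligands bind a complex of type I receptor kinases, such as the product of Bmpr1a, and type II receptor kinases, such as the product of Bmpr2. The complex phosphorylates SMAD1, SMAD5 and SMAD9, which join SMAD4 and act on genes in the nucleus. The ID genes are among the best known targets of this route, and ID proteins bind E proteins, a class of basic helix-loop-helix transcription factors, and keep them off DNA. TGFB1 signals mainly through other receptors and through SMAD2 and SMAD3. An autocrine BMP pathway is known in human ovarian surface epithelial cells.

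Abundances are on the TPM scale as the authors deposited them, which corrects for transcript length, so levels may be compared between genes. The read depth is unknown. Fold changes below are differences of log2(TPM + 1) from a limma fit over all 12257 genes, TGFB1 over untreated, and calls were made at a Benjamini-Hochberg adjusted p below 0.05. By this rule 30.4% of all tested genes were called, 15.8% higher and 14.6% lower with TGFB1, that is 1937 and 1788 genes. After each library was rescaled to its total without the mitochondrial genes and the top 20 genes, 2368 and 1417 were called. Treated replicate 1 lay farther from the untreated mean than either other treated library in 59.0% of all tested genes. Of 12 listed markers of ovarian surface epithelium and mesothelium, 9 averaged at least 1 TPM and 5 were called lower, and their summed level was 1228 to 1622 TPM in the TGFB1 libraries and 2271 to 2403 TPM in the untreated libraries. The keratin gene Krt8, of the same list, stayed between 0.18 and 0.41 TPM. Among 8 endothelial markers, 5 averaged under 0.1 TPM, Kdr and Tek among them, and the list summed to 1.92 to 2.63 TPM with TGFB1 and 1.26 to 1.34 TPM without. Among 8 leukocyte markers, 4 averaged under 0.1 TPM, including Ptprc, and the list summed to 8.37 to 11.2 TPM with TGFB1 and 19.7 to 27.4 TPM without, nearly all from Cd68. Smooth muscle and pericyte markers summed to 96.4 to 184 TPM with TGFB1 and 20.8 to 26.1 TPM without, nearly all from Mcam, while Myh11 and Rgs5 averaged under 0.1 TPM. Fibroblast markers summed to 1329 to 1392 TPM with TGFB1 and 1794 to 1972 TPM without, with Col1a1 at 126 to 218 TPM with TGFB1 and 6.16 to 7.15 TPM without, and Dcn at 592 to 647 TPM with TGFB1 and 1252 to 1475 TPM without. Steroidogenic markers summed to 79.8 to 183 TPM with TGFB1 and 282 to 328 TPM without, nearly all from Star, while Cyp17a1 and Hsd3b1 averaged under 0.1 TPM. Oocyte markers, nearly all Ddx4, summed to 7.06 to 9.40 TPM with TGFB1 and 10.5 to 24.3 TPM without. The sums of the granulosa markers overlapped, at 36.2 to 37.5 TPM with TGFB1 and 36.9 to 40.3 TPM without. Within that list Foxl2 was called higher and Inha lower (adjusted p = 0.0265 and 0.0152). The part of these shifts in the results below was not tested. In bulk RNA, fewer cells of a type and less RNA per cell cannot be told apart.

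After TGFB1, Id1, Id4 and Smad9 fell, and Smad1, Smad5 and Bmpr2 rose. Bmp4, Id2 and Id3 were lower in every treated library than in any untreated one but did not pass the test, and the levels of Bmpr1a overlapped between the groups. Thus 3 of the 10 genes were called higher and 3 lower, where 30.4% of all tested genes were called, 15.8% higher and 14.6% lower. The groups were separate in 9 of the 10, as they were in 49.8% of all tested genes. The median log2 fold change of the 10 genes was -0.63, and that of all tested genes was 0.02. Without treated replicate 1 these medians were -0.40 and 0.02. All 6 calls rest on 3 libraries a group, and all but that of Bmpr2 were lost when some single library was left out. Without treated replicate 1, when 32.2% of genes were called, 16.3% higher and 15.9% lower, 3 of the 10 genes were called higher and 5 lower, Bmp4 and Id3 being added.

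**Figure D1:**
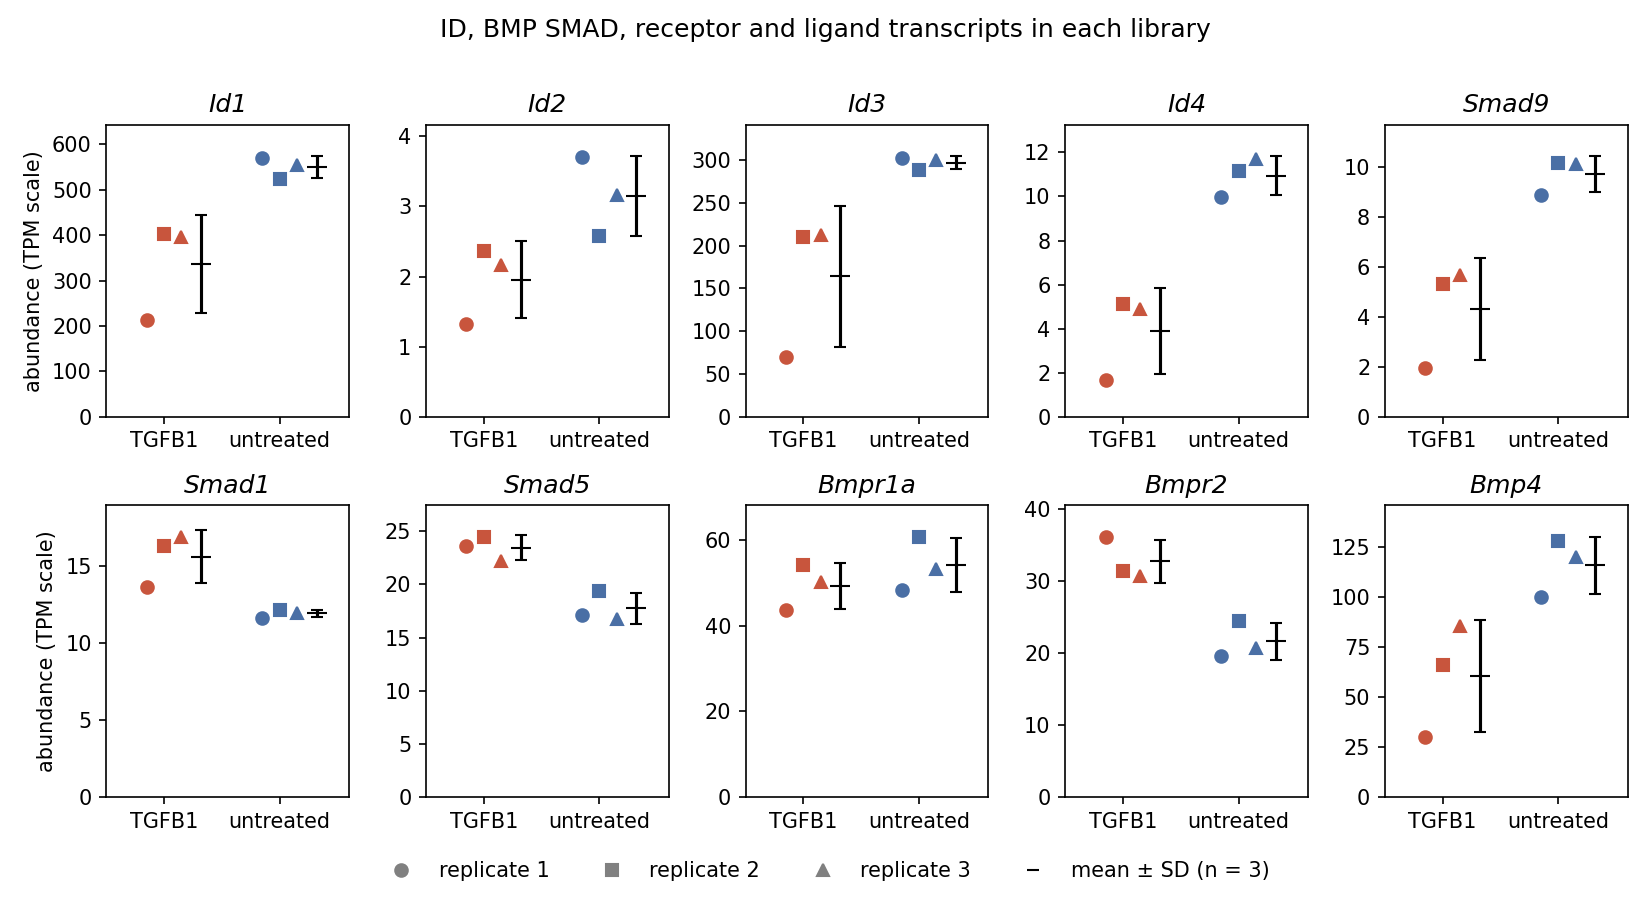
Abundance (TPM scale, y axis from 0) of the 10 genes in each of the 3 TGFB1 libraries (left in each panel) and 3 untreated libraries (right), with the group mean and SD beside the points. Treated replicate 1 is the lowest of the 6 libraries for all 4 ID genes, Smad9 and Bmp4, for instance 69.3 TPM for Id3, against 288 to 302 TPM in the untreated libraries.

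Sequences before the start site were read for the genes that RefSeq's table for GRCm38.p6 holds, which were 9 of the 10, all but Id1. The windows cover the 250 bases before each annotated start, and Smad5 has 3 starts, giving 11 windows. Windows of the called genes Id4, Smad9 and Smad5 (its first start) are shown because they contain no exon of GENCODE M21. Capitals mark GGCGCC, a GC-rich sequence of the kind that BMP SMADs bind, and CAGAC on either strand, the SMAD-binding core. The Id4 window is chr13:48260866-48261115 on the plus strand, the Smad9 window is chr3:54755332-54755581 on the plus strand, and the Smad5 window is chr13:56702760-56703009 on the plus strand.
Id4: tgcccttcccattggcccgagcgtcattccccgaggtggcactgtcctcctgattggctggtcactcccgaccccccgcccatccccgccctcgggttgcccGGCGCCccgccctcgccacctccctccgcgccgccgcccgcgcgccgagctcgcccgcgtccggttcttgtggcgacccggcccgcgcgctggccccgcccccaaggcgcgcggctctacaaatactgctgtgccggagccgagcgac
Smad9: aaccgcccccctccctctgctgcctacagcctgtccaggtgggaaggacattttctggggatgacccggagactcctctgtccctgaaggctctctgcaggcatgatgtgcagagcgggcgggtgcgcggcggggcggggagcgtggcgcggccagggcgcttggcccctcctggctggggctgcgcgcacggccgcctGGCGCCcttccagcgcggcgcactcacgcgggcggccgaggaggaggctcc
Smad5: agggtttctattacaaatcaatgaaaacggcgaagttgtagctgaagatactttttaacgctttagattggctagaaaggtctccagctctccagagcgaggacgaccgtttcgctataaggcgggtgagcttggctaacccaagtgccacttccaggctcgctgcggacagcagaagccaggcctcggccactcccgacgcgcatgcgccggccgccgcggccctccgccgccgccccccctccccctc
GGCGCC begins 148 bases before the start of Id4 and 51 bases before that of Smad9, and neither motif lies in the Smad5 window shown. GGCGCC occurred in 6 of the 11 windows. Counting all windows of a gene, it occurred before 6 of the 9 genes, namely Id2, Id4, Smad9, Smad5 (at its second start), Bmpr1a and Bmpr2. It thus occurred before genes that fell, genes that rose and genes that were not called. It was found in 9.59% of 32851 such windows in the table, and in 26.1% of those with a GC content of at least 60%, which all 11 windows reached. CAGAC occurred in 2 of the 11 windows, that of Id3, in 2 copies, and that of the last start of Smad5. It was found in 42.2% of the 32851 windows. By M21, the windows of Id3 and Bmpr2 lie wholly within exons of these genes. Exons also cover 161 bases of the Id2 window, 141 of the Bmpr1a window and 90 of the Smad1 window. They cover 42 and 186 bases of the second and last Smad5 windows. A match is only a match of letters.

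The ID genes differed widely in level. Id1, on chr2:152736251-152737410, is the most abundant of them and of the 10 genes. It had 213, 402 and 395 TPM in the TGFB1 libraries, against 571, 524 and 556 TPM in the untreated libraries. The groups were separate, with treated replicate 1 far below the other treated libraries. Id1 averaged 337 ± 108 TPM with TGFB1 and 550 ± 23.6 TPM without (mean ± SD, n = 3 per group here and below), and it fell by 0.76 on the log2 scale (SE 0.236, adjusted p = 0.0487). Its call was lost without any one untreated library, with no filter, under quantile normalization, after rescaling and without the intensity trend (adjusted p 0.0617 to 0.129). Without treated replicate 1 its log2 fold change was -0.46 (adjusted p = 0.000973).

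Id3, on chr4:136143497-136145755, encodes the ID protein most often studied together with ID1. Its abundance was 69.3, 210.4 and 213 TPM with TGFB1, against 302, 288 and 300.3 TPM without. The untreated values lay within a narrow band, and the treated ones were all below it. The log2 fold change of -1.02 did not pass (SE 0.409, 95% interval -1.99 to -0.05, adjusted p = 0.104). Without treated replicate 1 it was -0.49 with an SE of 0.0464 (adjusted p = 0.000525), so 1 library decided whether Id3 was called.

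Id4, on chr13:48261228-48266026, encodes an ID protein known for its roles in neural and mammary cells. It was measured at 1.66, 5.11 and 4.91 TPM after TGFB1, against 9.97, 11.2 and 11.7 TPM in untreated cells. Among the 10 genes it had the largest change, and it fell by 1.38 on the log2 scale (SE 0.313, adjusted p = 0.0181). The treated mean was 0.356 times the untreated mean, with treated replicate 1 lowest. Without that library the log2 fold change was -0.99 (adjusted p = 0.00061). The call was lost without any one untreated library or with no filter (adjusted p 0.0534 to 0.0653). GGCGCC lies in its window shown above.

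Id2, on chr12:25093799-25097140, encodes an ID protein known from lymphoid and mammary development and was scarce in these cells. It was at 1.33, 2.37 and 2.16 TPM with TGFB1, against 3.71, 2.58 and 3.16 TPM without. The groups were separate by a small margin, and the log2 fold change of -0.50 did not pass (95% interval -0.94 to -0.06, adjusted p = 0.0858). It did not pass under any of the 15 alternatives that could be run for it, since a filter at 5 TPM removed it.

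Relative to the untreated mean, treated replicates 2 and 3 averaged 0.724 for Id1, 0.72 for Id2 and 0.713 for Id3, and 0.458 for Id4. The first 3 ratios lay close together, although the untreated means of these genes span 3.15 TPM for Id2 to 550 TPM for Id1. In treated replicate 1 the ratios were 0.386 for Id1, 0.421 for Id2, 0.233 for Id3 and 0.152 for Id4. Summed over the 4 genes, ID transcripts came to 285, 619.8 and 615 TPM with TGFB1, against 887, 827 and 871 TPM without. Id1 held 74.6%, 64.8% and 64.2% of the sum in the treated libraries, against 64.4%, 63.5% and 63.8% in the untreated ones. Treated replicates 2 and 3 had nearly the untreated make-up at a lower total, and treated replicate 1 had a smaller share of Id3.

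**Figure D2:**
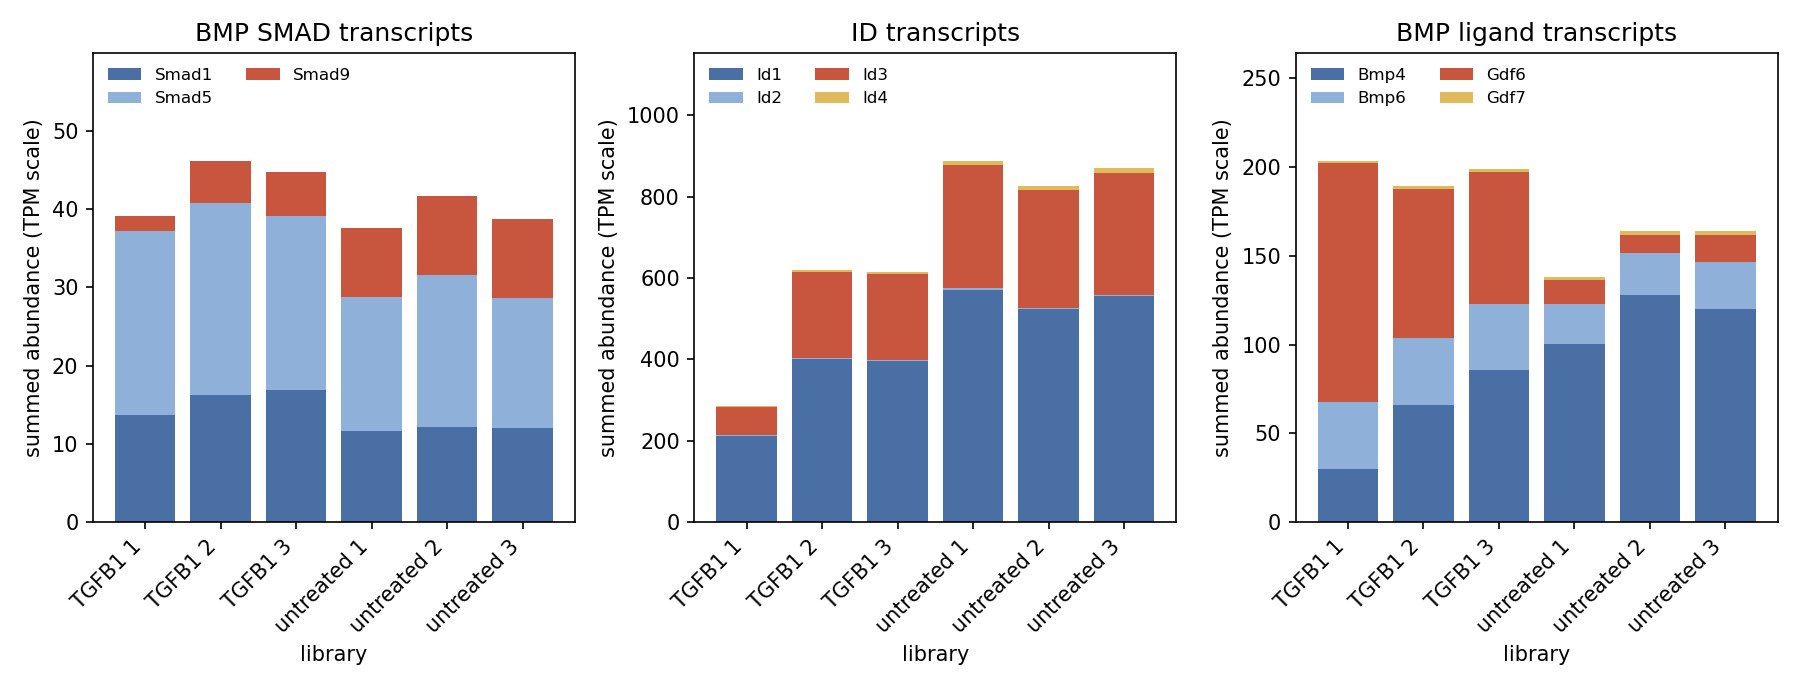
Summed abundance (TPM scale, y axis) of BMP SMAD, ID and BMP ligand transcripts in each library (x axis), with coloured segments for the genes. The ID sum is 285 to 619.8 TPM in the TGFB1 libraries and 827 to 887 TPM in the untreated ones, while the BMP SMAD sum overlaps between the groups and Gdf6 takes over from Bmp4 as the largest ligand segment in treated replicates 1 and 2.

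The 3 BMP SMAD genes did not move together. Smad9, on chr3:54755582-54801257, encodes SMAD9, also called SMAD8, a weaker activator than its relatives. It had 1.95, 5.32 and 5.66 TPM with TGFB1, against 8.89, 10.2 and 10.1 TPM without. All treated values lay below all untreated ones, and Smad9 fell by 1.10 on the log2 scale (SE 0.303, adjusted p = 0.0344). Without treated replicate 1 the fold change was -0.72 (adjusted p = 0.00212). The call was lost without any one untreated library or with no filter (adjusted p 0.0823 to 0.101).

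Smad1, on chr8:79338395-79399518, and Smad5, on chr13:56703010-56742377, encode the main carriers of BMP signals. Smad1 was measured at 13.6, 16.3 and 16.9 TPM with TGFB1, against 11.7, 12.2 and 11.96 TPM without. Treated replicate 1 was here the treated library nearest to the untreated ones. Smad1 rose by 0.36 on the log2 scale (SE 0.0941, adjusted p = 0.0297). This call was lost with no filter and without any one library other than treated replicate 1 (adjusted p 0.0655 to 0.0929).

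Smad5 had 23.6, 24.5 and 22.2 TPM after TGFB1, against 17.1, 19.4 and 16.7 TPM in untreated cells. The groups were separate, and the treated libraries were as tight as the untreated ones. Smad5 rose by 0.38 on the log2 scale (SE 0.0817, adjusted p = 0.0146). The call was lost without treated replicate 2, untreated replicate 1 or untreated replicate 3 (adjusted p 0.0519 to 0.0612).

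Smad1 and Smad5 rose while Smad9 fell, and the summed level of the 3 genes overlapped between the groups, at 39.2, 46.1 and 44.8 TPM with TGFB1, against 37.7, 41.7 and 38.8 TPM without. The share of Smad9 in that sum was 4.98%, 11.5% and 12.6% in the treated libraries, against 23.6%, 24.3% and 26.1% in the untreated ones. Smad5 was the largest contributor in every library, with 49.5% to 60.2% after TGFB1 and 43.1% to 46.5% in untreated cells.

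Of the receptor genes, Bmpr2, on chr1:59763400-59879014, encodes the type II BMP receptor. Its level was 36.2, 31.3 and 30.7 TPM with TGFB1, against 19.6, 24.5 and 20.7 TPM without. The treated values were all higher, and Bmpr2 rose by 0.58 on the log2 scale (SE 0.105, adjusted p = 0.0082). It alone among the 10 genes was called in the fit of all libraries and in all 16 alternatives (adjusted p 0.00601 to 0.0392). Bmpr1a, on chr14:34410734-34503341, encodes a type I BMP receptor also known as ALK3. It was at 43.5, 54.0 and 50.2 TPM with TGFB1, against 48.3, 60.8 and 53.1 TPM without. The groups overlapped, and the log2 fold change of -0.13 had a 95% interval of -0.40 to 0.13 (adjusted p = 0.41).

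The ligand gene Bmp4, on chr14:46383520-46390669, had 30.0, 65.9 and 85.5 TPM after TGFB1, against 100.1, 128 and 119.9 TPM in untreated cells. The treated libraries spread widely, and each lay below every untreated one. The log2 fold change was -1.04 (SE 0.352, 95% interval -1.88 to -0.21) and did not pass (adjusted p = 0.0638). It was called without treated replicate 1 (-0.61, adjusted p = 0.016) and without treated replicate 3 (-1.35, adjusted p = 0.0282). Bmp4 overlaps exons of Gm15217 on the opposite strand, which was between 0.165 and 2.02 TPM. Across the 10 genes, at most 4.08% of the transcripts' 31-base words occur in another M21 gene, the highest share being that of Bmpr1a. Id1 and Id3 share none.

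**Figure D3:**
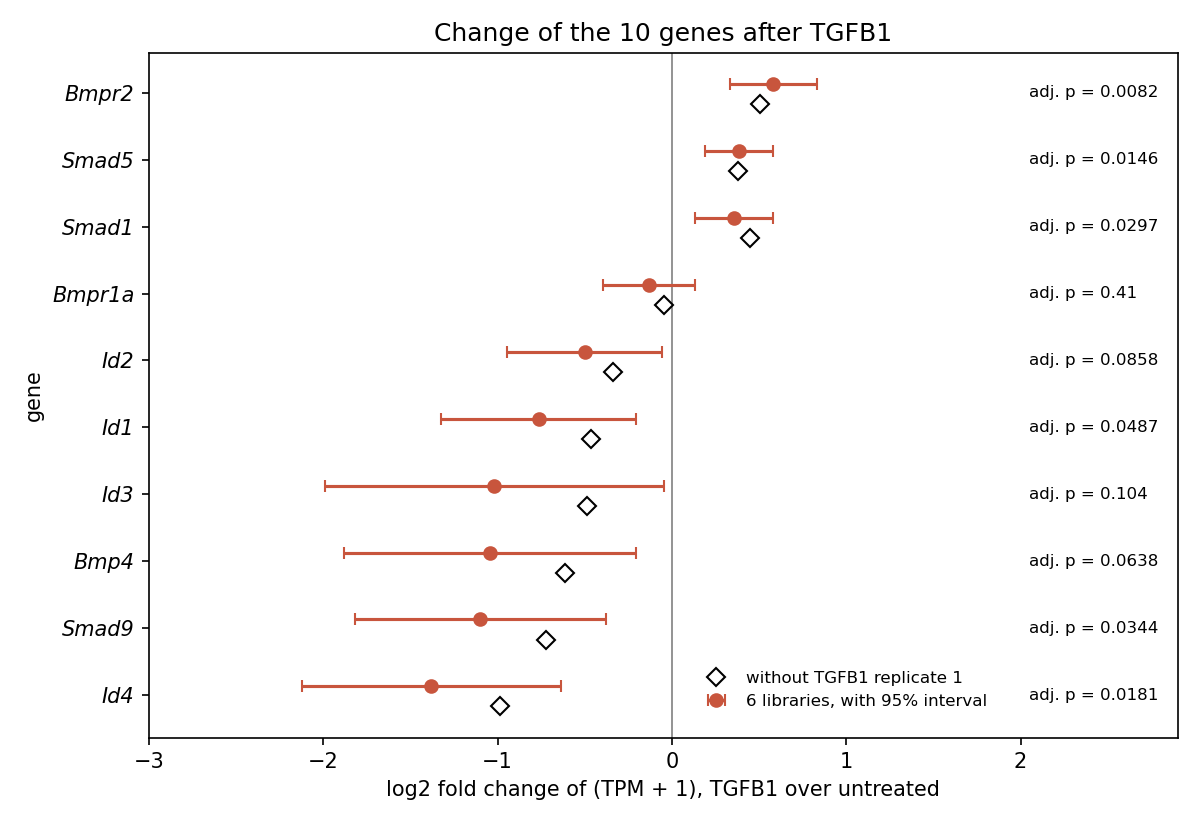
Log2 fold change of TPM + 1 (x axis, TGFB1 over untreated) of the 10 genes (y axis, sorted), with 95% intervals from the limma fit of the 6 libraries as filled points and the value without treated replicate 1 as open diamonds. The 6 genes with the lowest values move towards 0 without that library, Id3 standing at -1.02 with it and -0.49 without it. Bmpr1a is at -0.13 with it and -0.05 without it. Smad1, Smad5 and Bmpr2 are at 0.36, 0.38 and 0.58 with it, and at 0.45, 0.38 and 0.51 without it.

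The order of levels was similar in both groups. With TGFB1 it ran Id1, Id3, Bmp4, Bmpr1a, Bmpr2, Smad5, Smad1, Smad9, Id4 and Id2, and in untreated cells only Id4 and Smad9 changed places. In the treated libraries the ranges of Id1 and Id3, of Id3 and Bmp4, of Bmp4 and Bmpr1a, of Smad9 and Id4 and of Id4 and Id2 overlapped. Within each treated library, however, the order of these neighbours was the same, except that Bmpr1a exceeded Bmp4 in treated replicate 1. In the untreated libraries the ranges overlapped only between Smad1 and Id4 and between Id4 and Smad9, and each untreated library had Smad1 above Id4 and Id4 above Smad9. Treated replicate 1 was the library farthest from the untreated mean in 8 of the 10 genes, the exceptions being Smad1 and Smad5.

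Other genes of the pathway came from lists written for this purpose, 85 genes in all, of which 48 were abundant enough to be tested. Of these, 16 were called higher (33.3%) and 7 lower (14.6%), against 15.8% and 14.6% of all tested genes. Their median log2 fold change was 0.11. Among 13 other ligand genes 3 were tested and 2 rose. Gdf6, a BMP family ligand known for its part in joint and eye development, had 134, 84.0 and 74.3 TPM with TGFB1, against 13.5, 9.95 and 15.5 TPM without (log2 fold change 2.79, SE 0.244, adjusted p = 0.000758). Bmp6 had 37.6, 37.7 and 37.4 TPM with TGFB1, against 22.7, 23.9 and 26.3 TPM without (0.61, adjusted p = 0.00194). Both were higher in every treated library, and both calls held in all 16 alternatives. With Bmp4 and Gdf7 added, the ligand sum was 189 to 203 TPM with TGFB1 and 138 to 164 TPM without, and the share of Bmp4 in it was 14.8% to 43.0% with TGFB1 and 72.5% to 78.1% without. Of the Bmp6 31-base words, 5.2% occur in another gene, chiefly Txndc5. Bmp2, another well-known BMP ligand gene, was listed at 0 in every library, and Bmp7 averaged 0.11 and 0.141 TPM with and without TGFB1.

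Among 10 other receptor and co-receptor genes 8 were tested, 3 rose and 0 fell by limma, and 0 of them fell at an unadjusted p under 0.05. Acvrl1, which encodes the type I receptor ALK1 and is best known from endothelium, had 7.51, 8.30 and 6.19 TPM with TGFB1, against 1.83, 2.48 and 3.80 TPM without (log2 fold change 1.20, adjusted p = 0.00709). Acvr1, which encodes the type I receptor ALK2, rose too (0.56, adjusted p = 0.0227), a call lost with no filter and without untreated replicate 1 or 3 (adjusted p 0.0581 to 0.08). Neo1, a gene for a receptor of the repulsive guidance molecules that act as BMP co-receptors, rose by 0.72 (adjusted p = 0.00264). The genes Acvr2a and Acvr2b, for type II receptors shared with activin, had log2 fold changes of -0.0046 and -0.0097 and were not called.

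Of 17 genes for secreted antagonists and modulators 8 were tested, 3 rose and 1 fell. Nbl1, an antagonist gene also called DAN, had 79.6, 188 and 195 TPM with TGFB1, against 332, 418 and 361 TPM without (log2 fold change -1.36, adjusted p = 0.0232), a call lost without any one untreated library or with no filter (adjusted p 0.061 to 0.0783). Fstl1, which encodes a secreted follistatin-like protein reported to inhibit BMP4, rose by 1.42 (adjusted p = 0.000101), Bmper, which encodes a secreted BMP-binding regulator, by 0.65 (adjusted p = 0.0020), and Bmp1, which encodes a protease that cleaves the antagonist chordin as well as procollagens, by 1.46 (adjusted p = 0.000422). Other genes share 8.45% of the Fstl1 31-base words. Nog, the gene for the antagonist noggin, was under the filter, at 1.96, 0.61 and 0.97 TPM with TGFB1 and 0.04, 0.14 and 0.15 TPM without. The gremlin gene Grem1 averaged 0.043 and 0.061 TPM with and without TGFB1.

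Inside the cell, the common partner Smad4 was at 57.2, 65.2 and 62.6 TPM with TGFB1, against 57.7, 60.3 and 58.8 TPM without, and did not pass (0.06, 95% interval -0.10 to 0.22). The inhibitory SMAD gene Smad6, itself a known BMP target, was at 24.5, 55.8 and 57.7 TPM with TGFB1, against 65.2, 61.8 and 58.6 TPM without. It was not called (-0.51 on the log2 scale, adjusted p = 0.246), its low value lying in treated replicate 1, without which it was -0.12. Smad7, an inhibitory SMAD gene of both branches, was at 0.29 and did not pass (adjusted p = 0.0949). Of the whole list of 17 intracellular genes 15 were tested, 5 rose and 4 fell. Genes of the small C-terminal domain phosphatases, reported to dephosphorylate SMADs, were called lower, Ctdspl at -1.13, Ctdsp2 at -0.58 and Ctdsp1 at -0.55 (adjusted p = 0.0184, 0.0327 and 0.00644). Ppm1a, another phosphatase gene of this list, was called higher, at 0.38 (adjusted p = 0.00582). Smurf1 and Smurf2 were called higher too, at 0.35 and 0.37 (adjusted p = 0.0499 and 0.0211). The call of Smurf1 lay at the threshold. For Ppm1a, Smurf1 and Smurf2 the alternatives were not examined gene by gene. The calls of Ctdspl and Ctdsp2 were lost without any one untreated library and with no filter (adjusted p 0.0545 to 0.104), and 14.6% and 10.8% of the 31-base words of Ctdsp2 and Ctdsp1 occur in other genes. Skil, which encodes the SMAD corepressor SnoN, rose by 0.57 (adjusted p = 0.00899), and Fkbp1a, which encodes a protein that binds inactive type I receptors, by 0.50 (adjusted p = 0.00402). The TGFB-branch genes Smad2 and Smad3 were at 0.19 (adjusted p = 0.0493) and -0.02 (adjusted p = 0.879), and the call of Smad2 was lost in 11 of 16 alternatives, including each one that left out a library (adjusted p 0.0502 to 0.169 over the 11).

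Among 18 other genes described as BMP targets 8 were tested, and 1 rose and 1 fell. Atoh8, a helix-loop-helix factor gene, had 18.8, 36.9 and 35.2 TPM with TGFB1, against 48.4, 53.0 and 51.7 TPM without. It fell by 0.79 on the log2 scale (adjusted p = 0.0451), with treated replicate 1 lowest, and by 0.49 without that library. Its call was lost without any one untreated library, with no filter, after rescaling and without the trend (adjusted p 0.0573 to 0.121). Hes1, a Notch target gene as well, rose by 0.55 (adjusted p = 0.0301), a call lost with no filter and without treated replicate 2 or untreated replicate 2 or 3 (adjusted p 0.0709 to 0.103). Junb, Klf10, Gata2, Gata3, Msx1 and Runx2 did not pass, at log2 fold changes from -0.58 to 0.17. Junb, which encodes an AP-1 subunit, was at -0.26 (adjusted p = 0.0634) and was called lower without treated replicate 1 (-0.33, adjusted p = 0.0165). Hes1 was at 0.43 without that library (adjusted p = 0.0432).

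Of 9 genes for ID partners and related helix-loop-helix factors 5 were tested, 2 rose and 1 fell. Hes1, already counted among the BMP targets above, stands in this list too and is 1 of the 2 that rose. Tcf3, which encodes the E proteins E12 and E47 that ID proteins bind, had 74.0, 68.2 and 67.8 TPM with TGFB1, against 50.2, 48.8 and 44.8 TPM without (log2 fold change 0.54, SE 0.0697, adjusted p = 0.0027). The groups were well apart, and the call held in all 16 alternatives. The other E protein genes did not pass, Tcf4 at 0.12 and Tcf12 at 0.08. Twist1, a mesenchymal helix-loop-helix factor gene, fell by 0.42 (adjusted p = 0.031), a call lost with no filter and without treated replicate 3 or any one untreated library (adjusted p 0.0551 to 0.0988).

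**Figure D4:**
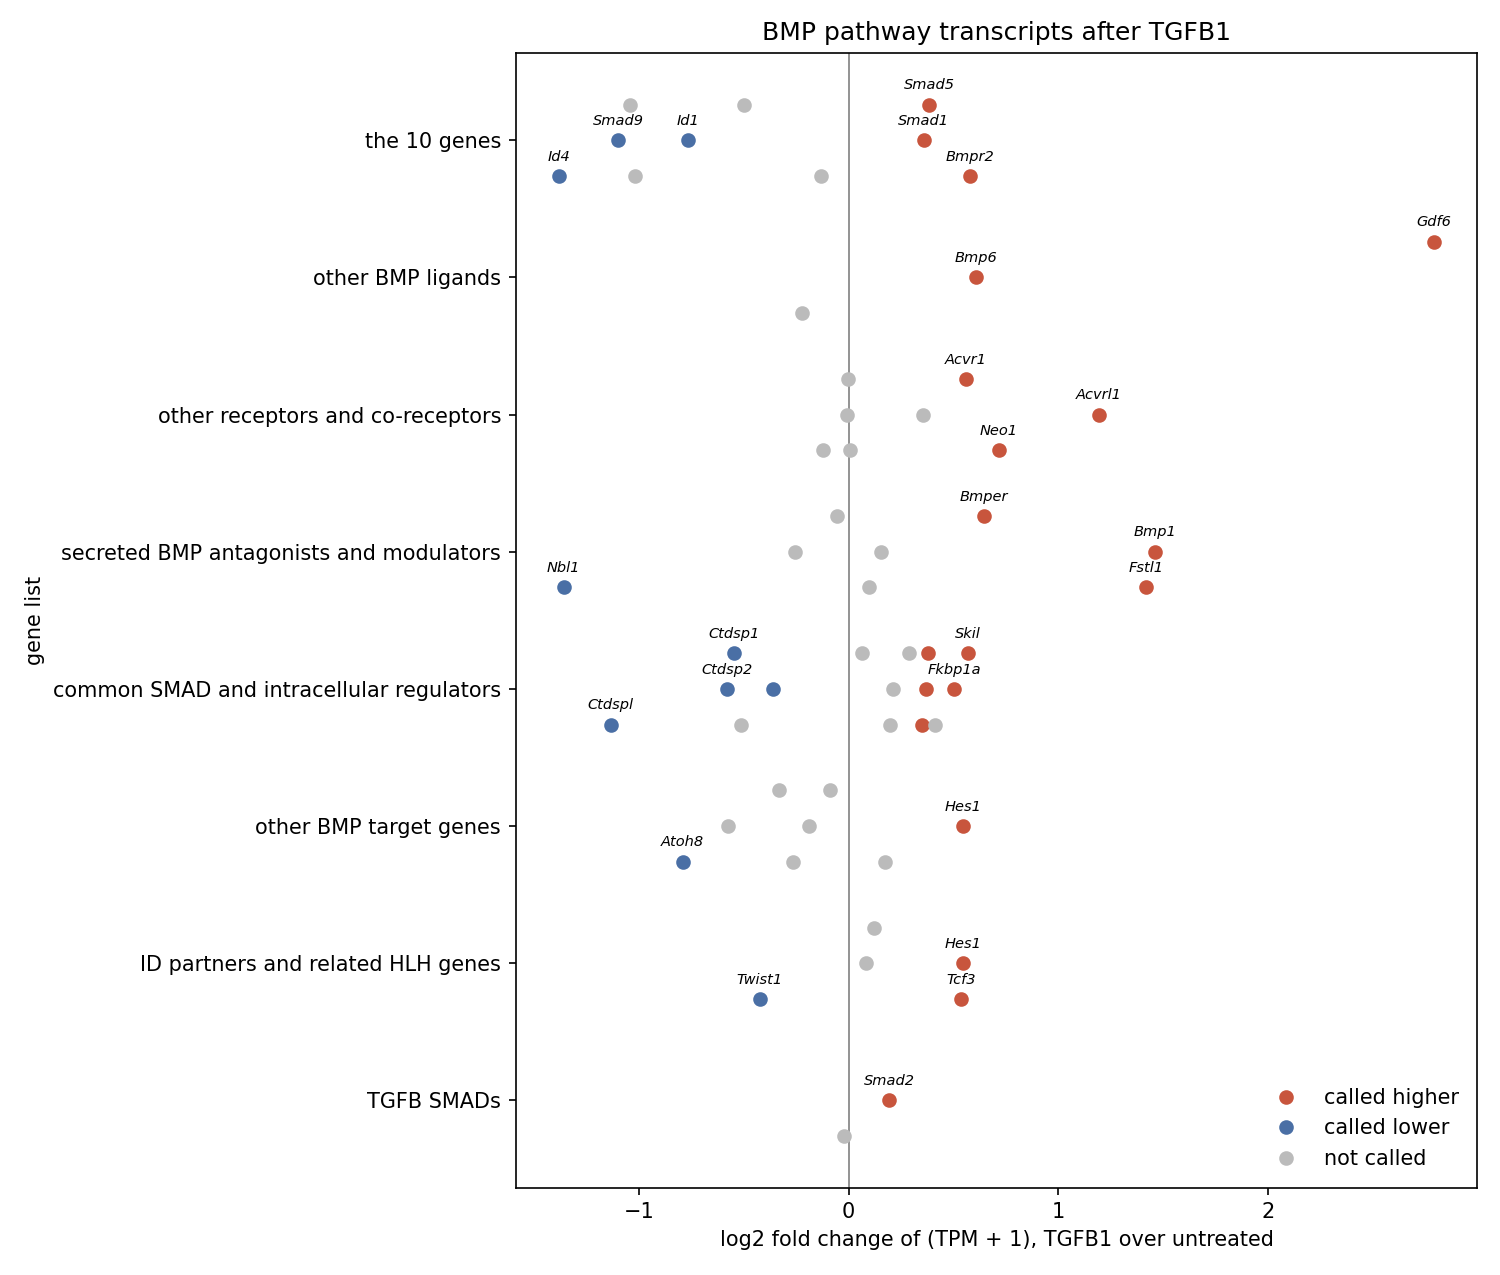
Log2 fold change of TPM + 1 (x axis, TGFB1 over untreated) of every tested gene of the BMP pathway lists (y axis, 1 row of points per list, spread vertically for legibility), coloured by its limma call. The called genes of the receptor and ligand lists lie to the right of 0, Gdf6 farthest at 2.79. The called genes Id4, Smad9, Nbl1 and Ctdspl lie left of -1, as do Bmp4 and Id3 of the 10 genes, which were not called.

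Genes whose profile over the 6 libraries was most like that of a member were found by the distance between mean-centred log2(TPM + 1) values, for the gene with the largest rise and the one with the largest fall. Nearest to Bmpr2 were Zfp451 (distance 0.0435), Rtkn (0.113), Brd3 (0.114), Myo1e (0.121) and Rnf11 (0.131), whose log2 fold changes ran from 0.53 for Rtkn to 0.60 for Myo1e. Of the Rtkn 31-base words, 37.5% occur in another gene, so its values are uncertain. Nearest to Id4 were Mgst1 (distance 0.2), Fam13c (0.204), Rcan2 (0.209), the BMP antagonist gene Nbl1 (0.222) and Gbp3 (0.243), with log2 fold changes from -1.50 for Rcan2 to -1.22 for Gbp3. Other genes share 12.4% of the Fam13c words and 5.64% of the Gbp3 words. These distances describe 6 libraries in 2 groups.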

How the data were processed

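Poly(A)-selected RNA from 6 libraries of the mouse line m1102 was analysed, 3 given TGFB1 and 3 untreated. Per the labels' protocols, 250 ng of total RNA went into each library, made with a directional kit. Kallisto 0.44.0, sleuth 0.30.0 and the build GRCm38 appear in the submitters' processing notes. For the annotation, the strand setting and the way transcripts became gene values, the sources used here give nothing. The authors deposited a TPM-scale signal per gene. Column totals were 983434 to 987121 in the TGFB1 libraries and 1006780 to 1026700 in the untreated ones, so the values are not plain TPM. In the main fit they were used without rescaling, although the totals differed between the groups. The values hold no counts, and the precision of low values cannot be computed.

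Sample titles gave the groups and replicate numbers, and columns were tied to samples by the same group and number. Genes averaging at least 1 TPM were kept, transformed as log2(TPM + 1), which understates changes of low genes, and fitted across genes (limma 3.58.1, eBayes with trend, under R 4.3.3). P-values were two-sided and adjusted by Benjamini-Hochberg over 12257 genes. The step was also run on simulated data with independent normal errors and few changed genes. That setting differs from these data, so it says nothing about the calls given here. The members, the gene lists and the naming rule were chosen with earlier results of these data known. The genes named are the members, up to 5 called genes per list with the largest change, 5 fixed SMAD genes and the 5 nearest profiles to 2 members, and other listed genes may be given with values. Coordinates are GENCODE M21 on GRCm38, which shared 35022 of 35688 gene IDs. Shared 31-base words were counted with Python 3.11.15. Alternatives changed the pseudocount, filter, scaling, trend, repeated rows, replicate block and libraries used. Protein sequences were not used here.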

Additional observations from a re-analysis of the deposited data

How the results depend on the processing

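The direction of each of the 10 genes held in every alternative run, 16 for each and 15 for Id2. With no filter, 2 members were called higher and 0 lower by limma (5 lower at an unadjusted p under 0.05). Of the other pathway genes, 13 were called higher and 1 lower. Over all genes tested in that fit, 1518 were called higher and 1313 lower, against 1937 and 1788 with the filter. Leaving out each library in turn, 1 to 3 members were called higher and 0 to 5 lower (3 to 6 lower at an unadjusted p under 0.05), 12 to 16 other pathway genes higher and 1 to 7 lower, and 1121 to 1992 of all tested genes higher and 915 to 1951 lower. The fits without any one untreated library gave 0 members and 1 other pathway gene lower, and the fit without treated replicate 1 gave 5 members lower. The cause was not tested. Only 1 member was called higher without treated replicate 2, untreated replicate 1 or untreated replicate 3. Smad3, never called, turned positive after rescaling (0.0242), without treated replicate 1 (0.0632) and without untreated replicate 2 (0.0294), and was at -0.0804 to 0.0632 over the fits that left out 1 library. Among the other named genes, 450 values kept direction and call, 56 lost the call, 3 reversed and 1 gained it. Over the alternatives the median of all genes lay between -0.0062 and 0.061.

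Deviations of same-numbered libraries from their group means correlated at 0.198, 0.153 and -0.0384. Treated replicates 1 and 2 correlated best with the untreated library of the same number, and treated replicate 3 with untreated replicate 2 (0.184). Deviations from a mean of 3 libraries are tied to one another, so they cannot decide whether the shared numbers pair the libraries. With a replicate block 3 members were called higher and 4 lower, Bmp4 (adjusted p = 0.0276) being added. Smad7 was called too (adjusted p = 0.0243). Of all tested genes, 1906 were called higher and 1924 lower in that fit, against 1937 and 1788 without the block. Unknown depth limits what the values of Id2 and of genes below 1 TPM can show.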
